A study of Mus musculus with 21 samples.

Results

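The cytosolic ribosomal protein genes were followed across 21 Hepa1-6 tumours of C57BL/6 mice. They were taken as the protein-coding genes whose GRCm38 symbol is Rpl or Rps followed by a digit, or is Rpsa, Rplp0, Rplp1 or Rplp2, without the Rps6k kinases and pseudogene symbols. The rule found 86 of the 55487 genes in the deposited table. Of these, 52 encode large-subunit proteins and 33 small-subunit proteins, near copies included. The remaining gene, Rps19bp1, encodes a protein that binds ribosomal protein S19 and is not part of the ribosome. Fau and Rack1, which also encode ribosomal proteins, fall outside the symbol rule and are given apart.

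A ribosome holds every ribosomal protein in nearly equal amount, so cells keep the messages for these proteins at high and coordinated levels. Ribosomal protein messages begin with a terminal oligopyrimidine (TOP) tract, through which the growth kinase mTOR and the RNA-binding protein LARP1 control their translation and stability. The transcription factor MYC raises ribosome production as a whole, and tumour cells that grow fast are known for a large demand for ribosomes. Stimulated T cells also build ribosomes as they begin to divide.

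B-depleted and WT mice received anti-PD1 plus anti-CTLA4 (the combination, antibodies that release checkpoints on T cells) or isotype antibody. The groups were B-depleted combination (5 libraries), WT combination (5), B-depleted isotype (6) and WT isotype (5). Every tumour was grown from the same mouse hepatoma line, Hepa1-6. The labels do not give the way B cells were depleted, the age or sex of the mice, or the doses and times of antibody. Nor do they tie libraries to animals, so p-values measure the spread between libraries. RNA came from whole frozen tissue, in which fewer cells of a type and less RNA per cell cannot be told apart. Total counts ran from 9523017 to 19166818 a library. Hepatocyte markers were present in all groups. B-cell genes summed to 13.7 to 31.3 CPM in B-depleted combination, 35.8 to 81.3 in WT combination, 5.89 to 17.4 in B-depleted isotype and 8.53 to 19.3 in WT isotype, so the groups given the combination did not overlap and the isotype groups did.

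Levels are CPM, a gene's count scaled to the total of its library. Changes are log2 fold changes ± SE from edgeR's quasi-likelihood test on 19061 genes, and a gene counts as called where its p, adjusted over all of them after Benjamini and Hochberg, is under 0.05. The filter on low counts kept 84 of the 86 genes. Rpl3l, the muscle form of Rpl3, held 35 counts in all and Rpl10l, a copy of Rpl10 known from testis, held 1, so neither was tested. Replicate values are listed in replicate order within a group, except in B-depleted isotype, for which the lowest, median and highest of 6 are given.

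A run of C and T bases near the annotated start was looked for in the gene's promoter window, which is not the same as the TOP tract at the start of the message. RefSeq promoter windows on GRCm38.p6 matched 66 of the 86 genes by symbol. A run of at least 10 C or T bases on the gene's strand, within 50 bases of the annotated start, was present in 41 of the 66 (62.1%), against 18.0% of 27025 promoters in the table, so 25 of the 66 held none by this rule and 20 of the 86 had no window. The stretches below are shown for genes that moved with the family in WT tumours (Rpl27a, Rpl31, Rpl35, Rps26, Rplp2) and for Rpl26 and Rpl39l, which moved against it. Capitals mark the longest run of C and T within 50 bases of the annotated start. The coordinates are those of the 30 bases printed.
Rpl27a (chr7:109519186-109519215, plus strand): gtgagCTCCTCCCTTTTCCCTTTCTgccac
Rpl31 (chr1:39367824-39367853, plus strand): ctcgccacaCCTCTTCCTCCTCgcctcccc
Rpl35 (chr2:39005115-39005144, minus strand): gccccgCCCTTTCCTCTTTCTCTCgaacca
Rps26 (chr10:128626485-128626514, minus strand): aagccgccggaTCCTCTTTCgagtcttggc
Rplp2 (chr7:141447636-141447665, plus strand): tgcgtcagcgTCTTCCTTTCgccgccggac
Rpl26 (chr11:68901508-68901537, plus strand): tcccaaccTCCTCTCCCCTTTCgctccgag
Rpl39l (chr16:10170191-10170220, plus strand): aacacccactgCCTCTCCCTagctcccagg

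The run began 4 bases before the annotated start in Rpl27a and was 20 bases long. In Rpl26 a run of 14 bases began 50 bases before the start, at the edge of the stretch searched. The bases printed just before it are also C, so the full run is longer. In Rpl39l a run of 9 began 26 bases before the start. The runs in Rpl39l and in Rps26, which fell, are both 9 bases and so shorter than the minimum of 10. Rpl12 and Rplp0, which also fell and are not printed, had longest runs of 8 and 7. The median longest run over all promoters was 7. Run length was not tested against the changes. Over the 300-base windows and on both strands, CCGGAAG, a site bound by GABP and other ETS factors, was present in 25 of 66 (37.9%, against 9.12% of all promoters). AAGATGG, a YY1 site, was present in 9 (13.6%, against 6.48%). CACGTG, the E-box bound by MYC and others, was present in 5 (7.58%, against 7.24%), and TATAAA in 6 (9.09%, against 14.2%). These are matches of letters and not shown binding sites.

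Per kilobase of annotated exon, the acidic stalk protein gene Rplp1 stood highest, with a mean of 585 CPM per kilobase over the 21 libraries, followed by Rps3a1 (485) and Rplp0 (474). The exon lengths cover every annotated transcript of a gene, some of which retain introns, and so lower this value most for genes with such transcripts. The lowest among the genes tested were Rpl36al and Rpl39l, both near copies, and Rpl24. Rpl24 averaged 1.78 CPM, and 47.0% of its exon bases overlap another gene annotated on the same strand. Rps10 averaged 9.16 CPM, and rows of its processed pseudogenes held 61.8% of the counts of the gene and its pseudogenes together. Pseudogene rows were present for 60 of the 86 genes, and how reads with several matches were counted is not given in the sources used here.

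The family's share of all counts was lowest in WT tumours given the combination. Ribosomal protein genes held 2.22, 2.03, 2.28, 2.07 and 1.49% of counts in B-depleted combination libraries. They held 1.81, 1.50, 1.93, 1.31 and 1.23% in WT combination libraries. The share ran from 2.02 to 2.47% with a median of 2.35% in B-depleted isotype libraries, and it was 2.10, 1.93, 2.62, 2.33 and 2.22% in WT isotype libraries. WT combination came level with the lowest WT isotype library only in replicate 3, and B-depleted combination replicate 5 sat among the WT combination libraries. The means were 2.02 ± 0.31% in B-depleted combination, 1.56 ± 0.30% in WT combination, 2.27 ± 0.18% in B-depleted isotype and 2.24 ± 0.26% in WT isotype (SD, n = 5, 5, 6 and 5).

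**Figure D1:**
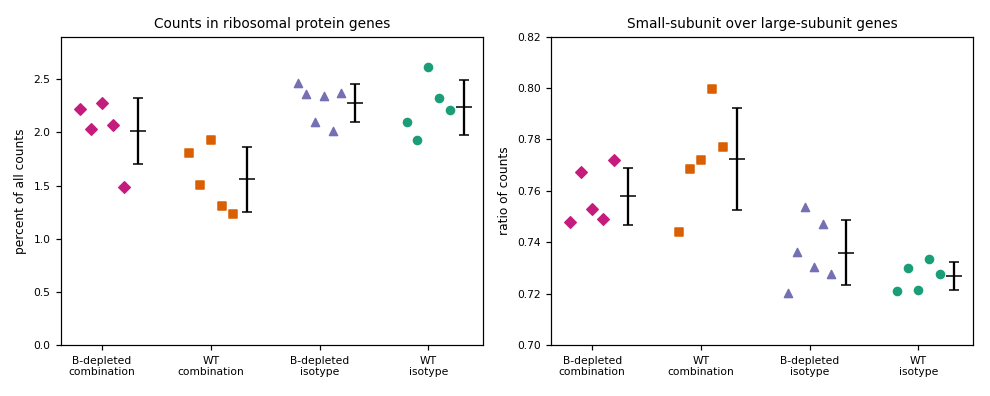
Percent of all counts in ribosomal protein genes (left) and counts of small-subunit over large-subunit genes (right, axis not from 0) in each library. Each point is a library, and the bar beside each group is its mean ± SD. WT combination held 1.23 to 1.93% against 1.93 to 2.62% in WT isotype, and the right panel shows ratios of 0.744 to 0.800 against 0.721 to 0.734.

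The balance between subunits also differed a little between groups, though not always in the libraries with a low share. Small-subunit counts per large-subunit count ran from 0.748 to 0.772 in B-depleted combination and from 0.744 to 0.800 in WT combination. They ran from 0.720 to 0.754 in B-depleted isotype and from 0.721 to 0.734 in WT isotype. The groups of WT tumours did not overlap in this ratio, and those of B-depleted tumours overlapped.

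In WT tumours most ribosomal protein messages were lower after the combination, by a modest amount. Of the 84 genes tested, 66 fell, 2 rose (Rpl26 and Rpl39l) and 16 were not called, against a background in which 25.0% of all genes fell, 25.0% rose and 50.0% were called either way. The median log2 fold change was -0.49, and it was -0.00 over all genes. The sign was negative for 82 of 84. In 26 genes every combination library lay below every isotype library, and in 1 gene above, where 14.3% and 15.0% of all genes did so. DESeq2 called 72 lower and 2 higher (27.0% and 25.9% of all genes). With a covariate for the level of 4 Y-linked genes, 0 members were called by edgeR, where 0.367% of all genes were, and the median was 0.11.

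Among large-subunit genes 41 of 50 fell and 2 rose, with a median of -0.51. Rpl30, a small protein at the face where the subunits meet, fell most among the genes called. It stood at 502, 312, 431, 261 and 227 CPM in WT combination, against 561, 474, 786, 668 and 631 CPM in WT isotype (-0.84 ± 0.20, adjusted p = 0.00204 by edgeR). Combination replicate 1 lay above the lowest isotype library, so the groups overlapped.

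Rpl12, which lies at the base of the stalk that recruits translation factors, stood at 470.0, 339.7, 493, 253 and 246 CPM in WT combination, against 571, 500.4, 818, 684 and 628 CPM in WT isotype (-0.81 ± 0.20, adjusted p = 0.00273 by edgeR). Its groups did not overlap, though combination replicate 3 and isotype replicate 2 were close. Rpl31, a protein at the rim of the exit tunnel, stood at 259, 189, 235, 151 and 136 CPM in WT combination, against 321, 282, 382, 341 and 323 CPM in WT isotype (-0.75 ± 0.16, adjusted p = 0.000993 by edgeR). Rpl31 also separated every library of the groups. Rpl27a averaged 150.3 ± 40.0 CPM in WT combination, against 248 ± 37.9 CPM in WT isotype (SD, n = 5 each; -0.71 ± 0.16), and Rpl21 averaged 119 ± 37.5 CPM, against 196 ± 21.2 CPM (-0.71 ± 0.17). Both were also without overlap.

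Among small-subunit genes 24 of 33 fell and none rose, with a median of -0.43. Rps26, which contacts the message near the exit site, stood at 328, 252, 321, 167 and 163 CPM in WT combination, against 419, 385, 489.9, 465 and 429.9 CPM in WT isotype (-0.82 ± 0.18, adjusted p = 0.00126 by edgeR). Every combination library of Rps26 lay below every isotype library. Rps2, at the entry to the message channel, averaged 324 ± 53.9 CPM, against 494 ± 69.6 CPM (-0.59 ± 0.12, adjusted p = 0.000792 by edgeR) without overlap. Rps6, the protein that S6 kinase phosphorylates downstream of mTOR, averaged 249 ± 54.3 CPM, against 367 ± 55.8 CPM (-0.54 ± 0.13, adjusted p = 0.00197 by edgeR), and its groups overlapped. Rpsa, also known as the laminin receptor, fell as well (-0.43 ± 0.11).

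The stalk genes did not show the same size of change. Rplp0, the stalk's anchor, stood at 554, 530.2, 671, 473 and 463 CPM in WT combination, against 724, 697, 1107, 986 and 912 CPM in WT isotype (-0.70 ± 0.15, adjusted p = 0.000915 by edgeR), with no overlap. Rplp2, which pairs with Rplp1 on that anchor, averaged 194 ± 59.7 CPM, against 316 ± 54.9 CPM (-0.69 ± 0.19, adjusted p = 0.0058 by edgeR). Rplp1 averaged 268 ± 39.6 CPM, against 308 ± 31.4 CPM, and was not called (-0.18 ± 0.10, adjusted p = 0.126 by edgeR). The difference between these genes was not tested.

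Of the 16 genes not called, 5 had an adjusted p between 0.0514 and 0.0564 by edgeR: Rpl38, Rps21, Rps27a, Rps23 and Rpl39. The smallest changes belonged to Rps29 (-0.08 ± 0.09) and Rpl34 (-0.05 ± 0.06). Rps29 averaged 143 ± 10.5 CPM in WT combination, against 153 ± 10.5 CPM in WT isotype (SD, n = 5 each). Rpl34 stood at 80.0, 75.0, 78.8, 72.0 and 78.5 CPM, against 84.4, 75.1, 85.6, 76.7 and 80.6 CPM. Both overlapped between groups. Rpl5 and Rpl11, which together bind the p53 regulator MDM2 when ribosome assembly fails, changed by -0.40 ± 0.11 (called) and -0.21 ± 0.10 (adjusted p = 0.0993 by edgeR, not called).

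Rpl26 moved the other way from its family. Rpl26, whose protein sits at the exit tunnel and in human cells also binds the p53 message, stood at 62.0, 58.4, 53.3, 67.3 and 71.9 CPM in WT combination. It stood at 48.6, 41.8, 47.6, 46.3 and 46.6 CPM in WT isotype (0.46 ± 0.10, adjusted p = 0.00119 by edgeR). Every combination library lay above every isotype library, and the call held without each library in turn. As a share of all ribosomal protein counts, Rpl26 held 0.421 ± 0.125% in WT combination and 0.208 ± 0.019% in WT isotype (SD, n = 5 each). Its level of about 50.5 CPM over all libraries is low for the family, no other gene is annotated over its exons, and 6 pseudogene rows together held 8 counts.

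Rpl39l, a copy of Rpl39 best known from testis and cancer cells, also rose, at a very low level. It stood at 1.58, 3.24, 1.01, 2.73 and 1.69 CPM in WT combination, against 0.883, 1.33, 0.294, 1.03 and 1.27 CPM in WT isotype (1.11 ± 0.45, adjusted p = 0.0447 by edgeR). The groups overlapped. The call was lost without any of 12 libraries in turn (WT isotype replicates 1, 3, 4 and 5, WT combination 2, 4 and 5, B-depleted isotype 3 and 4, B-depleted combination 1, 2 and 4), with adjusted p up to 0.133 by edgeR. Its parent Rpl39 averaged 171 ± 17.9 CPM, against 207 ± 19.3 CPM, and was not called (-0.26 ± 0.11, adjusted p = 0.0514 by edgeR).

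**Figure D2:**
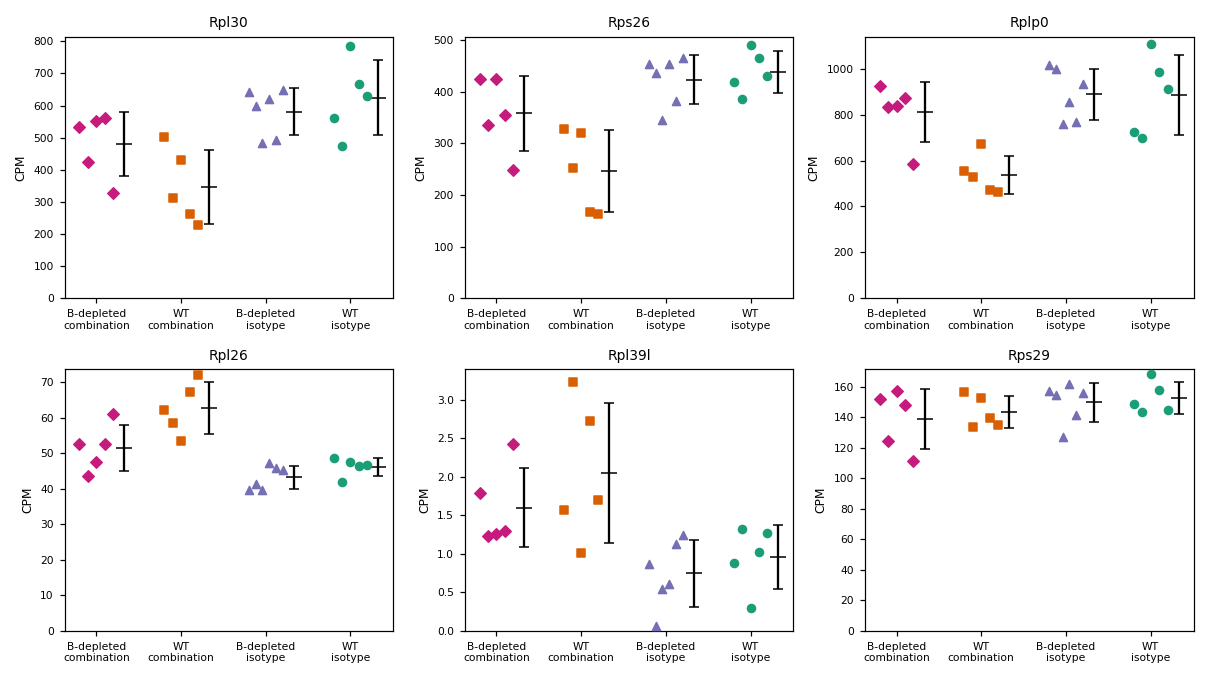
Level of 6 genes (CPM, axes from 0) in each library, by group, with mean ± SD beside the points. Rpl30, Rps26 and Rplp0 were lowest in WT combination, Rpl26 was highest there (53.3 to 71.9 CPM), Rpl39l stayed between 0.0641 and 3.24 CPM, and Rps29 overlapped across all groups.

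The 6 near copies that could be tested did not move as a set. Rpl22l1, the paralogue of Rpl22, fell in WT tumours (-0.50 ± 0.12, adjusted p = 0.0024 by edgeR), and so did Rpl22 (-0.38 ± 0.14, adjusted p = 0.0255 by edgeR). The Rpl22 call was lost without WT isotype replicate 3 or WT combination replicate 4 or 5, with adjusted p up to 0.0858. Rpl7l1, related to Rpl7, fell by less (-0.36 ± 0.10) than Rpl7 (-0.67 ± 0.16), a difference that was not tested. Rps27l, a p53 target in human cells, and Rps27rt were not called (-0.27 ± 0.13 and -0.26 ± 0.16), nor was their parent Rps27 (-0.16 ± 0.11). Rpl36al, near 1 CPM, was not called (-0.74 ± 0.38, adjusted p = 0.109 by edgeR), while its parent Rpl36a fell (-0.63 ± 0.19). Reads shared by a near copy and its parent could have gone to either, so values of these pairs are uncertain.

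In B-depleted tumours no ribosomal protein gene was called after the combination. The count was 0 of 84 by edgeR, against a background of 0.341% of genes called, 0.304% higher and 0.0367% lower. No member was without overlap between the groups, where 1.14% of all genes were higher and 0.876% lower in this way. There were 4 genes with an unadjusted p under 0.05 (14.3% of all genes), and DESeq2 also called 0. The median log2 fold change was -0.15, against 0.02 over all genes, and 77 of 84 were negative. Without B-depleted combination replicate 5 the median was -0.06.

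The smallest p in B-depleted tumours belonged to Rpl26. It stood at 52.7, 43.4, 47.6, 52.6 and 61.0 CPM in B-depleted combination, against 39.8 to 47.1 CPM with a median of 43.3 in B-depleted isotype (0.28 ± 0.09, adjusted p = 0.194 by edgeR), and the groups overlapped. Rpl39 (-0.27 ± 0.10) and Rpl23a (-0.36 ± 0.14) came next, with adjusted p of 0.246 and 0.249 by edgeR. Rpl39l, near 1 CPM, was not called in B-depleted tumours (1.09 ± 0.45, adjusted p = 0.269 by edgeR). Rpl30 stood at 533, 425, 552, 563 and 329 CPM, against 484 to 647 CPM with a median of 609 (-0.26 ± 0.19, adjusted p = 0.537 by edgeR). In Rpl30 only the lowest combination libraries, replicates 2 and 5, lay below every isotype library. Rplp0 stood at 927, 835, 836, 873 and 586 CPM, against 759.8 to 1017 CPM with a median of 894 (-0.12 ± 0.14), and only replicate 5 lay below the isotype range.

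**Figure D3:**
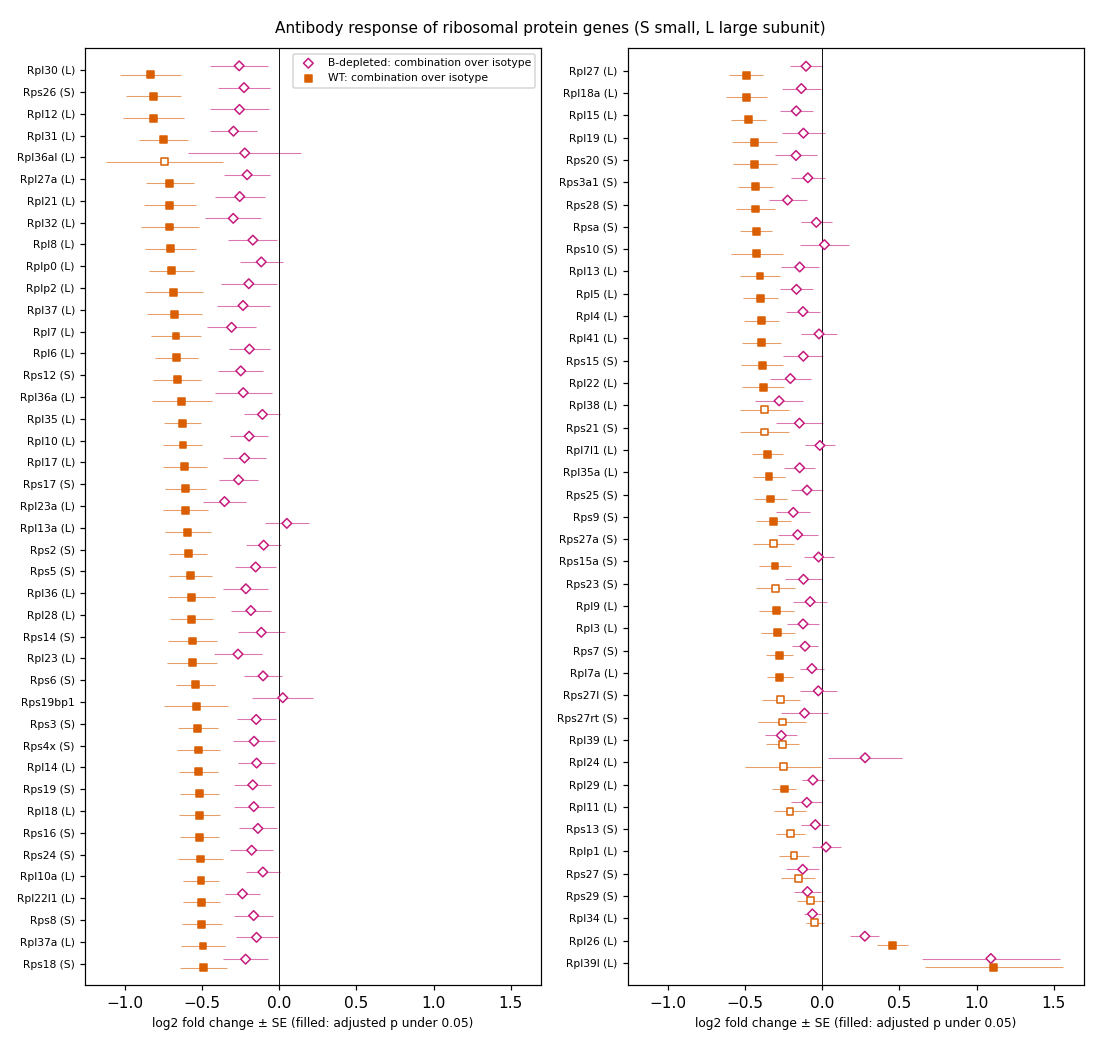
Log2 fold change ± SE of the combination over isotype for the genes tested, in B-depleted tumours (diamonds) and WT tumours (squares), ordered by the WT value. Filled symbols have an adjusted p under 0.05 by edgeR: 68 in WT tumours and 0 in B-depleted tumours, and the medians are -0.15 in B-depleted and -0.49 in WT tumours.

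The difference between these responses was tested as the interaction. No ribosomal protein gene was called by edgeR (0 of 84, background 0.0262%, of which 0.0157% higher and 0.0105% lower), 20 had an unadjusted p under 0.05 (25.6% of all genes), and DESeq2 called 2, Rpl13a and Rpl35. These are 2.38% of the 84, where DESeq2 called 4.19% of all genes higher, so their share was below the background. The median difference was 0.34 on the log2 scale, and 79 of 84 were positive, so the fall was numerically smaller in B-depleted tumours. The smallest p belonged to Rpl13a (0.64 ± 0.21, adjusted p = 0.0994 by edgeR), Rpl35 (0.52 ± 0.17, 0.102) and Rps2 (0.49 ± 0.17, 0.109). Rpl13a, a protein that in human monocytes is released from the ribosome under interferon-gamma, stood at 20.1, 23.4, 24.0, 25.4 and 17.4 CPM in B-depleted combination and 18.1, 15.8, 17.1, 14.4 and 12.3 CPM in WT combination. Its isotype levels were 16.8 to 25.5 CPM with a median of 21.6 in B-depleted and 19.6, 18.6, 30.5, 26.0 and 23.6 CPM in WT tumours. Rpl13a averaged only 20.7 CPM over all libraries, and 35.4% of its exon bases overlap other genes annotated on the same strand. Its level may therefore depend on how reads were counted. The count of members called was 9 without WT combination replicate 3 (10.7%, against 5.84% of all genes higher). It was 4 without B-depleted combination replicate 5 (4.76%, against 4.23%) and 7 without WT isotype replicates 1 and 2 (8.33%, against 6.23%).

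Under isotype, depletion of B cells left these genes without a detectable difference. None of 84 was called by edgeR (background 0.0%), 0 had an unadjusted p under 0.05 (2.95% of all genes), and DESeq2 called 0. The median log2 fold change was -0.00, with 42 genes on each side of 0. The smallest p belonged to Rps27a (0.20 ± 0.13), Rpl15 (0.15 ± 0.11) and Rps27 (0.14 ± 0.11), with adjusted p of 1.0 by edgeR.

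Under the combination, B-depleted tumours held more ribosomal protein message than WT tumours. Of 84 genes, 34 were higher, 1 was lower (Rpl26) and 49 were not called, against a background of 15.5% higher, 13.5% lower and 29.1% called. An unadjusted p under 0.05 was found for 55 members and 43.5% of all genes. The median log2 fold change was 0.35, a fold of 1.27, and it was 0.00 over all genes. Large-subunit genes gave 22 higher and 1 lower of 50, and small-subunit genes 12 higher of 33. The groups were without overlap in 2 genes (Rpl7l1 and Rps10), both higher, where 4.51% of all genes were higher and 6.03% lower in this way. This comparison uses the same WT combination libraries as the WT response, so the results are not independent. With only these groups in the fit 14 members were higher (16.7%, against 9.48% of all genes). With no filter on low counts 19 were higher (22.1%, against 4.88%), and with the Y-linked level as a covariate 0 were (against 0.0157%).

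Rpl8, a protein near the peptidyl transferase centre, changed most: 404, 408, 428, 400.0 and 289 CPM in B-depleted combination, against 272, 229, 347, 196 and 194 CPM in WT combination (0.62 ± 0.17, adjusted p = 0.0146 by edgeR). Rplp0 stood at 927, 835, 836, 873 and 586 CPM, against 554, 530.2, 671, 473 and 463 CPM (0.57 ± 0.15, adjusted p = 0.0123 by edgeR). Rps2 stood at 480.4, 507, 515, 506 and 368 CPM, against 343, 309, 408, 277 and 283 CPM (0.53 ± 0.12, adjusted p = 0.00828 by edgeR). In all of these genes the groups overlapped through B-depleted combination replicate 5, the lowest of its group, and WT combination replicate 3, the highest of its group.

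Rpl12 (0.56 ± 0.20), Rplp2 (0.56 ± 0.19) and Rps10 (0.53 ± 0.17) were also higher, with adjusted p of 0.0412, 0.0335 and 0.0282 by edgeR. Each of these calls was lost without certain libraries, left out in turn. For Rpl12 and Rplp2 these were WT combination replicates 2, 4 and 5 and B-depleted combination replicates 1 to 4 (adjusted p up to 0.119 and 0.0991). For Rps10 they were WT combination replicates 1, 4 and 5 and B-depleted combination replicate 2 (up to 0.0824). Rpl26 averaged 51.5 ± 6.57 CPM in B-depleted combination, against 62.6 ± 7.32 CPM in WT combination (-0.29 ± 0.10, adjusted p = 0.0338 by edgeR). The call was lost without WT combination replicate 4 or 5 or B-depleted combination replicate 1, 2, 3 or 4 (up to 0.111).

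The count of 34 depended on which libraries were in the fit. It was 15, 17, 12 and 13 without B-depleted combination replicates 1, 2, 3 and 4, where 10.8, 10.8, 9.42 and 9.54% of all genes were higher. It was 56 without B-depleted combination replicate 5 (background 20.1%). Without WT combination replicate 4 it was 7 (8.33% of members, background 6.60%), and without replicate 5 it was 8 (9.52%, background 6.63%), both near the background. It was 15 without WT combination replicate 2 (background 10.4%) and 64 without replicate 3 (background 19.9%). The median stayed between 0.26 and 0.44 in these refits.

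The genes rose and fell together across libraries. The correlation of each gene's log2 CPM with the mean of the other members had a median of 0.950 over 21 libraries, and it was over 0.9 for 66 of 84. After the group means were removed the median was 0.925. Only 3 genes were under 0.5: Rpl26 (-0.746), Rpl39l (-0.671) and Rpl24 (0.115). These libraries differ in depth and tissue make-up, and the values are given as a description. The 5 genes outside the family most like it in this way were Eef1b2, an elongation factor subunit (r = 0.985), Cpe (0.982), Eif4b (0.981), Cct7 (0.979) and Dars (0.978).

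**Figure D4:**
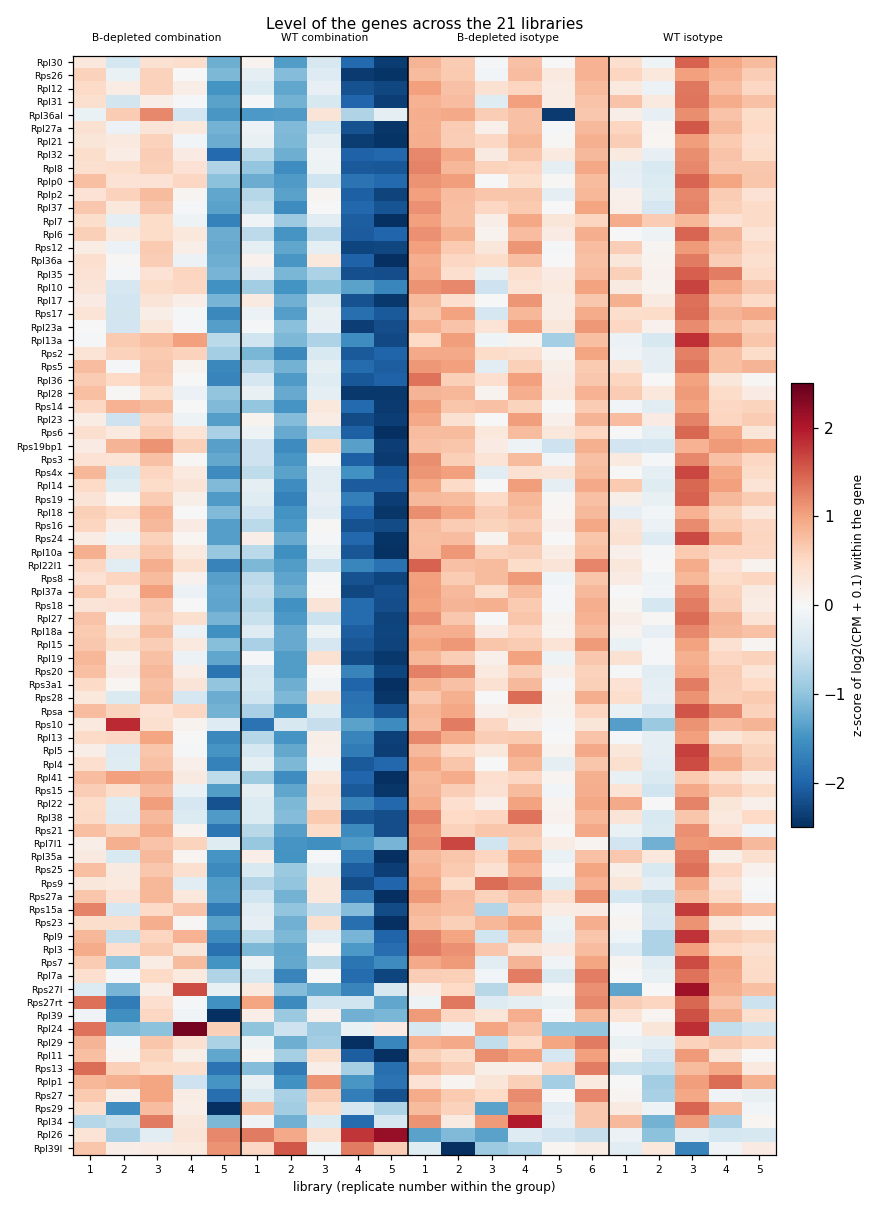
Level of the tested genes (rows, ordered by the WT response) in each of the 21 libraries (columns, by group), as a z-score of log2(CPM + 0.1) within the gene. WT combination replicates 4 and 5 and B-depleted combination replicate 5 are low for most rows, WT isotype replicate 3 is high, and Rpl26 and Rpl39l at the bottom run the other way.

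Libraries of the same group differed from each other along this shared pattern. The median member lay 0.67 and 0.52 log2 units below its mean in WT combination replicates 5 and 4, and 0.02 above it in replicate 3. In B-depleted combination it lay 0.33 below the mean in replicate 5, and between -0.01 and 0.16 in the other libraries. In WT isotype it ran from -0.08 to 0.43. Across the 84 members the WT log2 fold change had a Spearman rho of -0.364 with mean CPM, -0.139 with exon length and -0.037 with the pseudogene share, as a description over genes that are not independent. More abundant members tended to have the larger falls.

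Other genes of ribosome production and translation moved in the same direction. The lists were chosen with earlier results of these data known. Over all genes, 25.0% fell and 25.0% rose in WT tumours. Of 80 ribosome biogenesis genes, 69 fell in WT tumours and none rose (median -0.53), among them Rcl1 (-1.29), Brix1 (-1.08) and Nop2 (-1.03), all factors of ribosome assembly. Of 34 initiation factor genes 28 fell and none rose (median -0.38), led by Eif3h (-0.81) and Eif3b (-0.79). Of 17 other TOP messages 16 fell (median -0.57), with Pabpc1 (-0.98) and Npm1 (-0.95) in front, and Vim rose (0.52). Of 8 elongation genes 7 fell (median -0.59), and Eef2k, the kinase that inhibits elongation factor 2, rose (0.98). The lists share genes, so their counts are not independent. Most elongation genes and some initiation factor genes, Eif3h among them, are also on the list of other TOP messages. Npm1 is also on the biogenesis list.

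Of the ribosomal protein genes outside the symbol rule, Rack1 fell in WT tumours and Fau was not called. Rack1, a scaffold on the small subunit, averaged 601 ± 124 CPM in WT combination, against 1028 ± 120.2 CPM in WT isotype (SD, n = 5 each; -0.76 ± 0.15, adjusted p = 0.000801 by edgeR). Fau (-0.26, adjusted p = 0.119), which encodes a fusion with a ubiquitin-like sequence, was not called by edgeR. Of 13 host genes of small nucleolar RNAs 10 fell, among them Snhg15 (-1.09) and Zfas1 (-0.98), and Snhg18 rose (1.44). Of all genes, 25.0% fell and 25.0% rose.

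Growth control genes were mixed, with 3 higher and 5 lower of 22 in WT tumours, no more than the 25.0% of all genes in each direction. Myc averaged 109 ± 18.6 CPM in B-depleted combination, 63.0 ± 22.6 CPM in WT combination, 126 ± 14.4 CPM in B-depleted isotype and 123 ± 14.8 CPM in WT isotype (SD, n = 5, 5, 6 and 5). It fell in WT tumours (-0.95 ± 0.18, adjusted p = 0.000452 by edgeR). Larp1 fell too (-0.42 ± 0.10, adjusted p = 0.00277 by edgeR), while Mtor was not called (0.13, adjusted p = 0.091). Mycn (-1.18) fell and Mxd4, a MYC antagonist, rose (0.71). Of 14 genes of ribosome stress and quality control 7 fell, led by Eif2ak4 (-0.44), and Eif2ak2, which interferon induces, rose (0.33). The median of this list was -0.30, and 25.0% of all genes fell and 25.0% rose.

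In B-depleted tumours none of these lists held a called gene after the combination by edgeR, and none did under isotype or in the interaction. Of all genes, only 0.341%, 0.0% and 0.0262% were called in these comparisons, so few or none would be found in lists of this size. Under the combination, B-depleted tumours were higher than WT tumours in 59 of 80 biogenesis genes, 17 of 34 initiation factor genes and 9 of 17 other TOP messages, with none lower, where 15.5% of all genes were higher. Of 8 elongation genes 4 were higher and 1 lower, Eef2k (-0.85). Of 22 growth control genes 4 were higher and 2 lower, Max (-0.32), the partner of MYC, and Mxd4 (-0.65). Of 13 snoRNA host genes 5 were higher, and of 14 stress and quality control genes 4 were, with none lower in either. Myc was higher (0.76 ± 0.18, adjusted p = 0.00955 by edgeR), and so were Larp1 (0.36) and Rack1 (0.52). These again rest on the shared WT combination libraries.

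Hepatocyte and cell-cycle genes fell along with the family's share in WT tumours, while fibroblast and T-cell genes rose. Fibroblast genes rose in 8 of 10 cases in WT tumours, and their summed level ran from 3075 to 25380 CPM in B-depleted combination, 7681 to 27380 in WT combination, 2572 to 5726 in B-depleted isotype and 2841 to 5287 in WT isotype. B-depleted combination replicate 5, the library of that group with the lowest ribosomal share, had the 25380. Hepatocyte genes fell in 7 of 8 cases tested, and their sum ran from 591 to 1832, 126.7 to 1017, 1286 to 2386 and 1020.0 to 2958 CPM in the same order of groups. Cell-cycle genes fell in 10 of 14 cases, with sums of 1204 to 1950.0, 769 to 1421, 1364 to 1886 and 1308 to 1652 CPM. T-cell genes rose in 12 of 12 cases, with sums of 266 to 365, 445 to 708, 75.0 to 252.5 and 96.6 to 200.4 CPM. For comparison, 25.0% of all genes fell and 25.0% rose in WT tumours. None of the markers in these lists was at 0 throughout a group. The part these played in the ribosomal protein result was not tested.

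**Figure D5:**
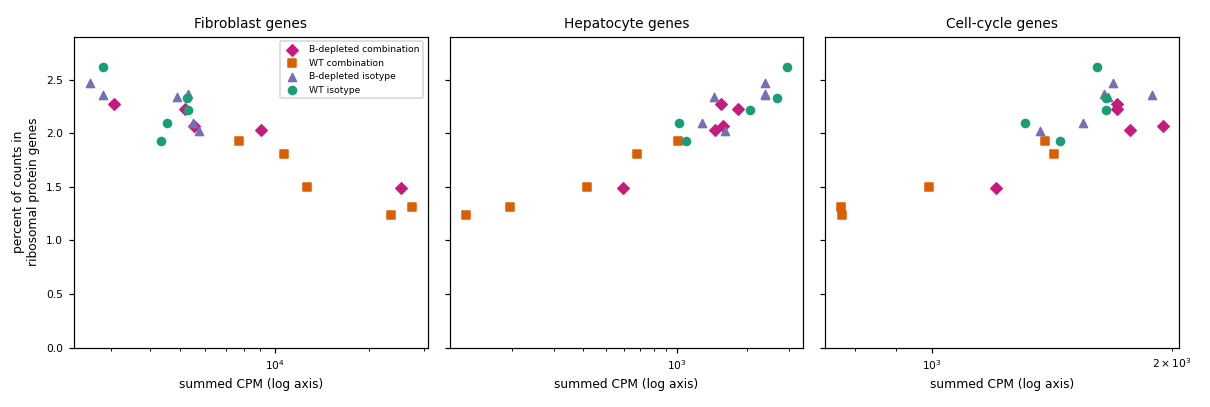
Percent of counts in ribosomal protein genes (vertical) against the summed CPM of fibroblast, hepatocyte and cell-cycle genes (horizontal, log axes), with 1 point per library. Libraries with a low ribosomal share, down to 1.23% in WT combination, had the most fibroblast signal and the least hepatocyte and cell-cycle signal, and B-depleted combination replicate 5 (1.49%) stood with them.

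The summed level of 4 Y-linked genes also differed between groups: 85.9 to 169 CPM in B-depleted combination, 135 to 250.5 in WT combination, 46.3 to 119 in B-depleted isotype and 47.6 to 79.2 in WT isotype. All 4 rose in WT tumours, without overlap of this sum between the groups, so it and the antibody effect can hardly be told apart in the WT comparison. With this level as a covariate, no ribosomal protein gene was called by edgeR in WT tumours (4 had an unadjusted p under 0.05) and the median was 0.11. Of the 68 genes called without it, 56 took the opposite sign. B-depleted against WT tumours under the combination then also had 0 genes called (4 at an unadjusted p under 0.05), with a median of 0.01. For these fits the share of all genes at an unadjusted p under 0.05 is not given here, so these counts are not read as a result about the family.

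The share of mitochondrially encoded counts was 1.13 to 1.52% in B-depleted combination, 0.911 to 1.75% in WT combination, 1.13 to 1.59% in B-depleted isotype and 1.52 to 2.04% in WT isotype. A list of 11 genes that respond to tissue handling summed to 397 to 686 CPM in B-depleted combination, 379 to 505 in WT combination, 451.5 to 719 in B-depleted isotype and 539 to 706.5 in WT isotype. The WT groups did not overlap in this sum. Of the 11 genes, 4 fell and 1 rose in WT tumours, against 25.0% of all genes each way. The part of handling in the result was not tested. With the mitochondrially encoded counts left out of the total, the ribosomal share averaged 1.58 ± 0.31% in WT combination and 2.28 ± 0.27% in WT isotype (SD, n = 5 each). With pseudogene rows added, it averaged 1.59 ± 0.31% in WT combination and 2.28 ± 0.26% in WT isotype. WT isotype replicates 1 and 2 stood apart by low levels of a hepatoma gene list (241 and 284 CPM summed, against 933 to 1611 in replicates 3 to 5). Without them, 1 gene rose in WT tumours, Rpl26, and the share of all genes that rose in that fit is not given here.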

How the data were processed

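The authors deposited a table of raw read counts per Ensembl gene for 21 libraries. The submitters' processing notes name GRCm38, STAR 2.7.2a and cutadapt 2.4. Per the labels, total RNA went into TruSeq Stranded mRNA libraries. Not given in the sources used here: the counting program, its strand setting, the annotation release and the treatment of reads with several matches. Symbols came from GENCODE M21 for 55227 identifiers, and 260 had none. In R 4.3.3, genes were filtered by filterByExpr, scaled by TMM and fitted with edgeR 4.0.16 (robust quasi-likelihood, 1 model of the 4 groups, no covariates). The script was tested on simulated data. Alternatives were DESeq2 1.42.0, other scaling, no filter, only the groups compared, a replicate block, a Y-linked covariate and leaving out libraries. The genes and lists were chosen with earlier results of these data known. Any family member could be named. By rule these were the largest called changes of each comparison, or the smallest p where none was called, near copies with their parents, and the highest and lowest per kilobase. Others, such as Rps6, Rpsa, Rps29, Rpl34, Rpl5 and Rpl11, were picked for their role or after their values were seen. Whether libraries stood for independent animals could not be checked. Exon lengths are unions of annotated exons, from GENCODE M21. Promoters are from RefSeq. Some genes are not reported by name here and are left out of the figures, but counts and medians include them.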

Additional observations from a re-analysis of the deposited data

Results flagged for a closer look

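The levels of 34 genes and 2 summary measures (the family's share and the subunit ratio) were examined in each of 4 groups, 144 cases in all. In 12 of these, all of them gene levels, the highest or lowest library lay far from the rest of its group (a gap over Dixon's critical value). Chance flags about 1 in 20 groups. B-depleted combination replicate 5 was far below its group in Rpl12 (319.5 CPM, next 559), Rpl3 (283, next 403), Rpl8 (289, next 400.0), Rplp0 (586, next 835) and Rps2 (368, next 480.4). B-depleted combination replicate 2 was high in Rps10 (13.8 CPM, next 9.82). B-depleted isotype replicate 5 was low in Rplp2 (255 CPM, next 339.8) and in Rpl36al (0.297, next 1.37). Rpl3l, the muscle form, was high in WT combination replicate 5 (0.977 CPM, next 0.237) and B-depleted isotype replicate 3 (0.550, next 0.104), the libraries with the highest summed skeletal muscle genes of their groups (334.5 and 290.5 CPM). The part of muscle tissue in this was not tested. Rpl3l was seen in 1 of 5 B-depleted combination libraries, replicate 4 (0.0812 CPM). The only count of Rpl10l was in WT combination replicate 4 (0.0593 CPM).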

How the results depend on the processing

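In WT tumours the count lower (66) ran from 52 to 76 without each library in turn, where 19.3 to 26.8% of all genes were lower, and the count higher from 1 to 2. The count higher was 1 with no filter on low counts, 0 with the Y-linked covariate and 1 without WT isotype replicates 1 and 2 (a setting added after seeing the data). With the Y-linked covariate the count lower was 0, the median 0.11, and the sign turned for Rpl39l (-0.31), Rpl30 (0.0494), Rpl12 (0.13), Rpl27a (0.0257), Rpl21 (0.0356), Rpl22l1 (0.0355), Rpl22 (0.22), Rpl3 (0.19), Rpl36a (0.22) and Rpl7 (0.0397). For B-depleted against WT tumours under the combination, the count higher (34) was 19 with no filter, 53 with the replicate block (where 16.5% of all genes were higher), 14 with only the groups compared and 0 with the covariate, and 7 to 64 without each library. The count lower (1) was 0 with no filter, with only the groups compared and with the covariate, and 0 to 1 without each library. The median with the covariate was 0.0070. For the interaction, 2 genes were higher with DESeq2, 7 without WT isotype replicates 1 and 2, and 0 to 9 without each library, and the median was -0.0659 with the covariate. The cause of these changes was not tested. Replicate numbers in the titles gave little sign of pairing. Same-numbered libraries correlated at -0.357 to 0.553 in their deviations, and 9 of 30 pairs were over 0.1. Their median was 0.027, against -0.0017 for pairs with different numbers. The numbers in the deposited column names differ for some libraries, and pairing by them was not checked. With the replicate block, 72 genes were lower and 2 higher in WT tumours. The share of all genes called in that fit is not given here, so the change from 66 is not read as a result about the family. Genes near 1 CPM rest on few counts per library.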

Other observations

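Within the pool of ribosomal protein counts, some members held different shares in different groups. Rplp1 held 1.48 ± 0.13% of the pool in B-depleted combination, 1.74 ± 0.15% in WT combination, 1.30 ± 0.077% in B-depleted isotype and 1.38 ± 0.086% in WT isotype (SD, n = 5, 5, 6 and 5). Rpl39 held 0.836 ± 0.065%, 1.12 ± 0.11%, 0.902 ± 0.028% and 0.927 ± 0.032% in the same order of groups. Rpl30 held 2.37 ± 0.24%, 2.18 ± 0.36%, 2.55 ± 0.15% and 2.77 ± 0.21%. These genes were chosen after their values were seen, and the shares were not tested.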
